A study of Mus musculus with 6 samples.

Results

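The NKR-P1, CD94-NKG2 and NKp46 receptors are cell-surface receptors first known from natural killer (NK) cells and also found on subsets of T cells. The 10 genes taken here by symbol were Klrb1a, Klrb1b, Klrb1c and Klrb1f of the NKR-P1 family, Klrd1, Klrc1, Klrc2 and Klrk1, which encode CD94, NKG2A, NKG2C and NKG2D, Klrg1, and Ncr1, which encodes NKp46. Every probe set annotated with 1 of these symbols alone was kept, whatever its value, which gave 16 of the 45141 probe sets of the array and 10 of the 17097 genes that a probe set names alone. Klrb1b had 5 probe sets, Klrb1f and Klrc1 had 2 each, and each other gene had 1. Probe sets of 1 gene share their RNA and are not replicates.

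Blood was drawn from 3 female C57BL/6 mice of 6 to 8 weeks, labelled A, C and D, and activated effector memory T cells of each mouse were sorted into a CD3+ CD62L- CD44high CD11c+ and a CD3+ CD62L- CD44high CD11c- fraction, so that the CD11c+ and CD11c- groups had 3 arrays each and the fractions of a mouse were paired. CD11c is an integrin chain best known from dendritic cells, and the comparison asked which genes mark the circulating T cells that carry it. No gene was altered in either group, and the mice of both had received 3 mg of Depo-Provera, a long-acting progestin, 5 days before by the sample labels (the study's methods give a different day). Each sample held 300 cells, and its RNA was amplified before it was hybridised to 1 single-colour array. The stains named for the sort were CD3, CD4, CD62L, CD44, CD11c and a dye for dead cells. Apart from CD11c itself, which myeloid dendritic cells carry, no stain was named for an NK or a myeloid antigen.

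The values are log2 signals, so a difference of 1 is a 2-fold change, and each fold change given is CD11c+ over CD11c-. Differences were tested in limma over all probe sets with the mouse as a block, and an adjusted p under 0.05 was the threshold. A group mean at or under 5.79 on the log2 scale, the 95th percentile of 35 measured genes of other tissues, counts as not above background here, and no exact fold change can be had against it. In the whole series 432 probe sets passed as higher and 76 as lower in the CD11c+ fraction, and the median log2 fold change was -0.09. The array medians ran from 4.40 to 4.54. Itgax, which encodes CD11c, stood at 8.93, 9.06 and 8.93 in the CD11c+ fractions of mice A, C and D, against 5.80, 3.88 and 4.12 in the CD11c- fractions (log2 fold change 4.37, adjusted p = 0.0387). The CD3 chain genes Cd3d, Cd3e and Cd3g were far above background in each fraction, and their log2 fold changes were -0.58, -0.49 and -0.69 (adjusted p = 0.214, 0.205 and 0.174).

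Receptors of these families let a lymphocyte weigh activating against inhibitory signals from the cell it touches. The NKR-P1 proteins are lectin-like, and several bind Clr proteins encoded beside them, CD94 pairs with an NKG2 chain to read the class I-like molecule Qa-1, NKG2D reads stress-induced class I-like proteins, and NKp46 is of the immunoglobulin type. Many activating members signal through adaptor chains such as DAP12, DAP10 and FcRγ, whereas inhibitory members carry a motif in their tail that recruits phosphatases. In RefSeq the 9 lectin-like genes lie on mouse chromosome 6 in the order Klrg1, Klrb1a, Klrb1c, Klrb1b, Klrb1f, Klrd1, Klrk1, Klrc2 and Klrc1, and Ncr1 lies on chromosome 7.

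Over the 16 probe sets, 4 were higher in CD11c+ cells at the threshold, against 0.957% of all probe sets, 1 was lower, against 0.168%, and 11 did not pass. Those higher were the single probe set of Klrd1 and 3 of Klrb1b, and the 1 lower was that of Klrb1c. The 3 CD11c+ arrays lay above all CD11c- arrays in 11 of the 16, against 6.40% of all probe sets, and below them in 1, against 12.5%, and the groups overlapped in 4. The median log2 fold change of the 16 was 0.99. With each gene taken by its brightest probe set, Klrd1 was higher and Klrb1c lower, 1 gene each of 10, against 1.40% and 0.222% of all genes, and 8 did not pass. The median over the 10 genes was 0.73, against -0.09 over all genes, and within mice A, C and D it was 0.46, 0.44 and 0.87. Of the 10 genes, 5 were above background in both fractions, 2 in 1 fraction and 3 in neither. The genes had been chosen with earlier results of these data known, so these counts describe them.

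**Figure D1:**
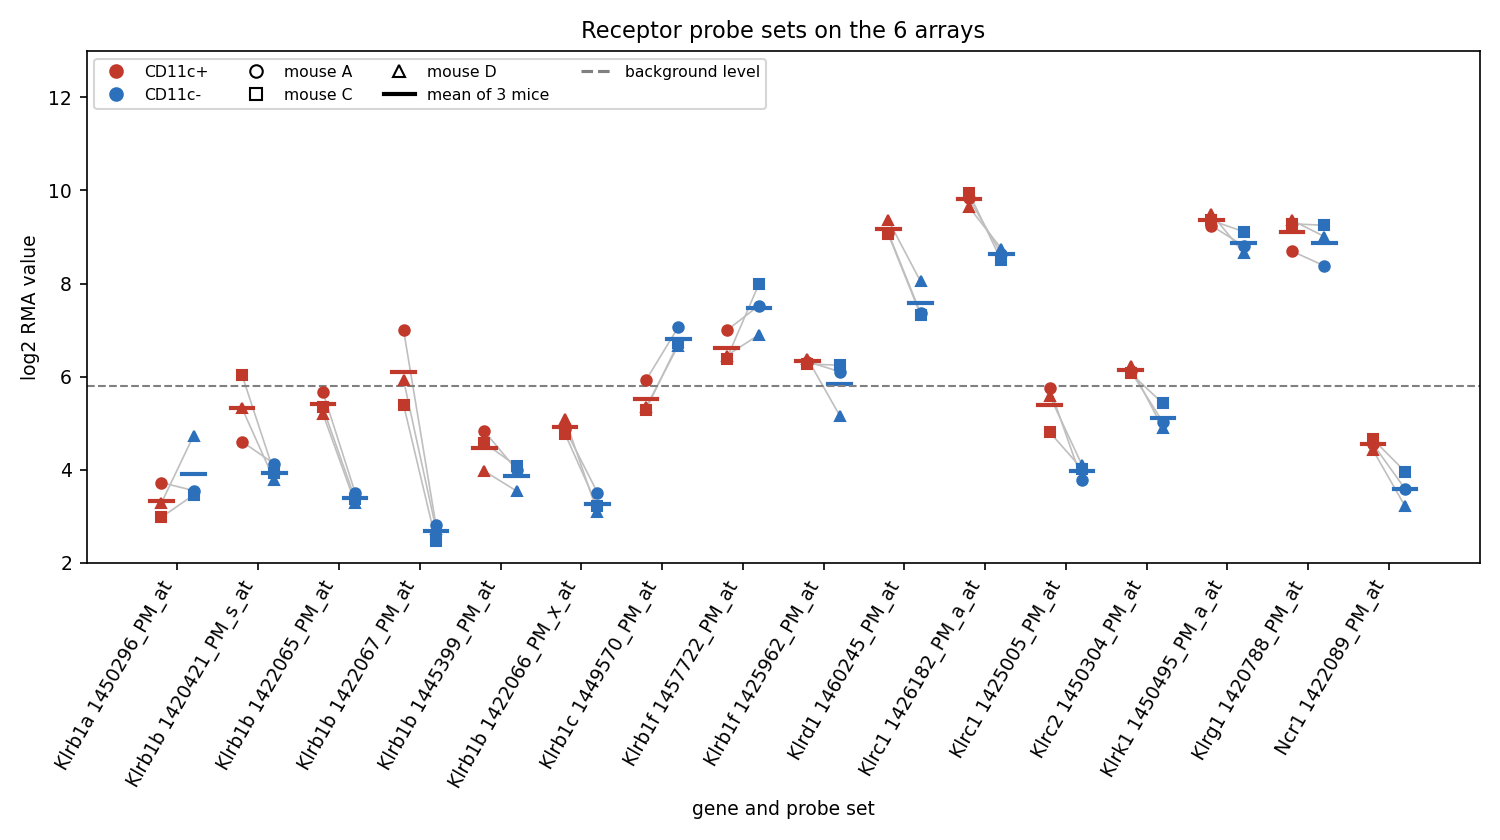
Log2 RMA values (vertical axis) of the 16 receptor probe sets (horizontal axis) on the 6 arrays, CD11c+ in red left of CD11c- in blue, with marker shape for the mouse, grey lines joining the fractions of a mouse, short bars for group means and 5.79, the background level, dashed. Klrd1, Klrk1, Klrg1 and the brighter probe set of Klrc1 lie well above the dashed line in both fractions, whereas Klrb1a, Ncr1, the second probe set of Klrc1 and 4 of the 5 Klrb1b probe sets have both means under it.

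The CD94 and NKG2 genes were measured well above background in both fractions, Klrc2 excepted. Klrd1, which encodes CD94, the common partner of NKG2A and NKG2C, had log2 values of 9.09, 9.06 and 9.37 in the CD11c+ fractions of mice A, C and D, against 7.37, 7.33 and 8.05 in the CD11c- fractions. Every CD11c+ value exceeded every CD11c- value by more than 1 unit, and the difference within mice A, C and D was 1.72, 1.73 and 1.32. The CD11c+ mean was 9.17 ± 0.168 and the CD11c- mean 7.58 ± 0.403 (SD over 3 mice), a 3.01-fold increase (1.59 on the log2 scale, with a standard error of 0.153, and adjusted p = 0.0344 in limma). Klrd1 did not pass once each array was centred on its median (adjusted p = 0.0551), nor without mouse A (0.201), C (0.149) or D (0.0536), where its log2 fold changes were 1.62, 1.53, 1.52 and 1.73. Without mouse A no probe set of the array passed in limma (2796 were higher and 2767 lower at an unadjusted p under 0.05).

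Klrc1, which encodes the inhibitory chain NKG2A, had 2 probe sets. That of the higher signal, 1426182_PM_a_at, read 9.83, 9.95 and 9.65 in the CD11c+ fractions of mice A, C and D, against 8.64, 8.50 and 8.75 in the CD11c- fractions. The groups did not overlap and the spread within each was small, 9.81 ± 0.153 in CD11c+ and 8.63 ± 0.128 in CD11c- cells, but the log2 fold change of 1.18 (95% confidence interval 0.74 to 1.62) did not pass with the mouse as a block (adjusted p = 0.074). It passed without the block (adjusted p = 0.0131), with the mouse as a random block (0.01), with a trended variance (0.026) and when both Klrc1 probe sets were averaged (log2 fold change 1.30, 0.0209, adjusted over genes). The second, 1425005_PM_at, was not above background in either fraction (log2 fold change 1.42, adjusted p = 0.121).

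Klrc2 encodes NKG2C, the activating counterpart of NKG2A. Its probe set read 6.12, 6.08 and 6.22 in the CD11c+ fractions of mice A, C and D, against 5.03, 5.43 and 4.89 in the CD11c- fractions. The CD11c+ mean, 6.14 ± 0.0737, was above the background level by only 0.35, and the CD11c- mean, 5.12 ± 0.278, was under it. The log2 fold change of 1.02 (95% confidence interval 0.54 to 1.51) did not pass (adjusted p = 0.113), but passed with a random block (0.0323), with no block (0.0418) and with the arrays centred on the CD3 chains (0.00232), a scaling added after the data were seen. Taken against the background level, Klrc2 was at least 1.27-fold higher in CD11c+ cells, a bound that carries no test of its own.

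Klrk1, the gene of the activating receptor NKG2D, was at 9.25, 9.36 and 9.50 in the CD11c+ fractions of mice A, C and D and at 8.81, 9.12 and 8.66 in the CD11c- fractions. The groups did not overlap, but the lowest CD11c+ array (mouse A) lay close to the highest CD11c- array (mouse C). The log2 fold change of 0.51 (95% confidence interval 0.05 to 0.96) did not pass (adjusted p = 0.328). Klrg1, an inhibitory receptor of late effector cells that binds cadherins, was at 8.70, 9.28 and 9.36 in CD11c+ and 8.38, 9.25 and 9.01 in CD11c- cells. Here the mice differed more than the fractions did, mouse A being lowest in both, and the log2 fold change was 0.23 (95% confidence interval -0.14 to 0.61, adjusted p = 0.588). Ncr1 encodes NKp46, an activating receptor that signals through CD3ζ and FcRγ. Its 3 CD11c+ arrays, at 4.56, 4.66 and 4.43, lay above its CD11c- arrays, at 3.59, 3.96 and 3.22, but neither mean was above background, so the log2 fold change of 0.96 (adjusted p = 0.0995) gives no measured level in either fraction. Ncr1 passed when the fit was adjusted over genes, each by the average of its probe sets (adjusted p = 0.048), and with the CD3 chains (0.00254).

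**Figure D2:**
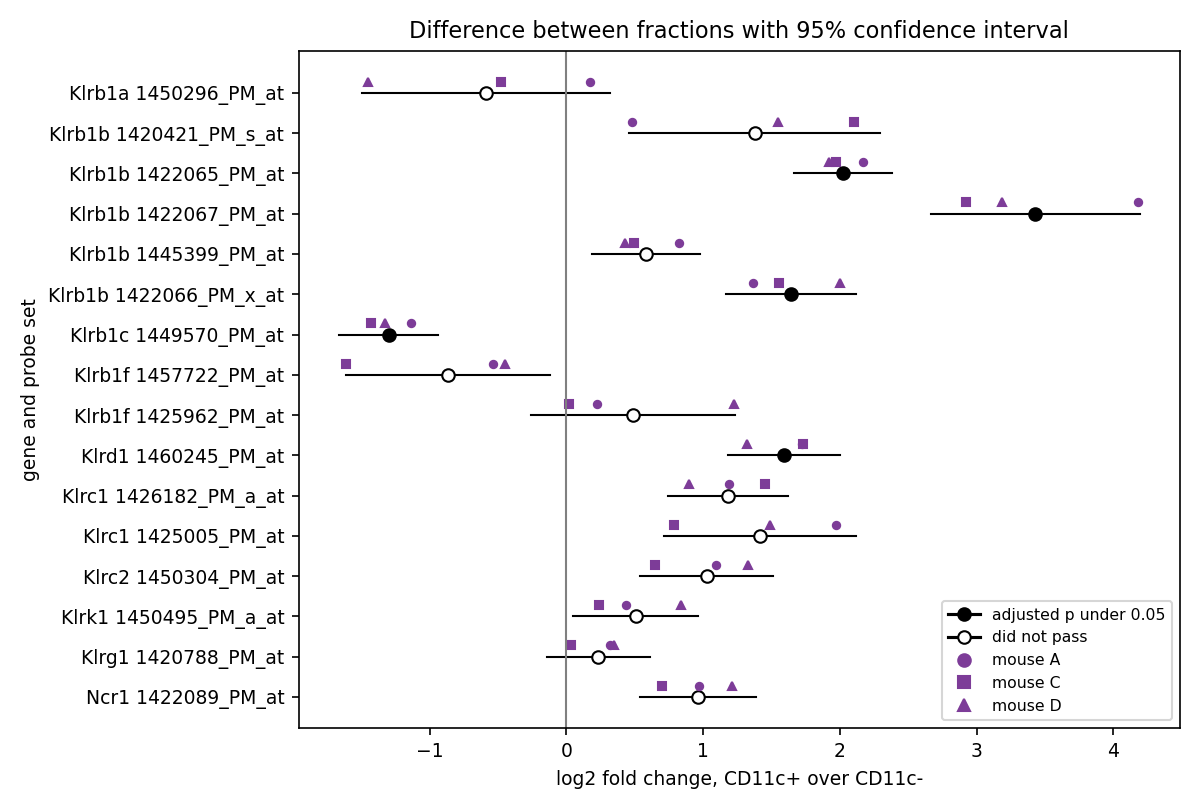
Log2 fold change of CD11c+ over CD11c- (horizontal axis) of the 16 receptor probe sets (vertical axis), with 95% confidence intervals from limma that are not adjusted for the number of probe sets, filled circles for an adjusted p under 0.05, open circles for the rest and small symbols for each mouse. Filled circles mark Klrd1 and 3 Klrb1b probe sets right of 0 and Klrb1c left of it, and the 2 probe sets of Klrb1f lie on opposite sides of 0.

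The 4 NKR-P1 genes did not share a direction. Klrb1b had 3 probe sets that rose, Klrb1c fell, Klrb1a was not above background and the 2 probe sets of Klrb1f had opposite signs. Since these genes are close copies lying side by side, the RefSeq sequence of the 250 bases before each annotated start (build GRCm38.p6) is shown for the 4, 5′ to 3′ on the strand of the gene, with short motifs of 3 kinds of transcription factor in capitals. The letters searched for, on both strands, were TGTGGT for Runx factors, GGTGTG for T-box factors and GGAAGT for Ets factors, the last of which reads ACTTCC where it lies on the other strand. The positions are chr6:128622935-128623184 (minus strand) for Klrb1a, chr6:128826316-128826565 (minus) for Klrb1b, chr6:128788642-128788891 (minus) for Klrb1c and chr6:129045651-129045900 (plus) for Klrb1f.
Klrb1a: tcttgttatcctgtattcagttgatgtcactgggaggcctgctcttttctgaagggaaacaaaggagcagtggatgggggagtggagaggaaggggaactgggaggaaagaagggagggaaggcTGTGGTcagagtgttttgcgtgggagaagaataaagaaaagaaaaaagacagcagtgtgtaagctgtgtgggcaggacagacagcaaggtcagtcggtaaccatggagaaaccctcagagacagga
Klrb1b: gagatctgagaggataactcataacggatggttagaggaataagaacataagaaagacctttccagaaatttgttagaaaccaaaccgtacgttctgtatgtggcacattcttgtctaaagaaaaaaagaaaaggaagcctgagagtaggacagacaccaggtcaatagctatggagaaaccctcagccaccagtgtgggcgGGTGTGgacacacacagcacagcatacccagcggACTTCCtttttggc
Klrb1c: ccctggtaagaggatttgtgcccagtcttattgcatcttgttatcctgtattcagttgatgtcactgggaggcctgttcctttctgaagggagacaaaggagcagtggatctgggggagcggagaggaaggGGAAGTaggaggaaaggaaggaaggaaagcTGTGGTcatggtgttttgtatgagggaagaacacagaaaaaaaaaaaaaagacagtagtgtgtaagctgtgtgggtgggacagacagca
Klrb1f: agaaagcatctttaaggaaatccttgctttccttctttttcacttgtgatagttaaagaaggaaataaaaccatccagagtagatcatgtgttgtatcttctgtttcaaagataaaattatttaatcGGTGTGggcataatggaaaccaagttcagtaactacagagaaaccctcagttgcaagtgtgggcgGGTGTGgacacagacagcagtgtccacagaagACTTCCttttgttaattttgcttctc
The longest match was between the stretches of Klrb1a and Klrb1c, which were identical at 87.4% of 215 aligned columns. Those of Klrb1b and Klrb1f were identical at 78.7% of 94, whereas Klrb1a and Klrb1b matched at 73.2% of 82, Klrb1a and Klrb1f at 72.9% of 59, Klrb1b and Klrb1c at 72.0% of 50 and Klrb1c and Klrb1f at 76.3% of 38. The Runx letters were in the stretches of Klrb1a and Klrb1c, 126 and 89 bases before the start, and in neither of the other two. The T-box letters were in those of Klrb1b (48 bases before the start) and Klrb1f (123 and 58 bases), and the Ets letters in those of Klrb1b (14 bases), Klrb1f (26 bases) and Klrb1c (119 bases). Of 27025 promoter stretches of this length, 14.2% held the Runx, 16.2% the T-box and 20.0% the Ets letters. Among the 8 receptor genes with an entry (all but Klrd1 and Klrg1) the counts were 6, 2 and 3, the other Runx entries being Klrc1, Klrc2, Klrk1 and Ncr1. A match of letters is a description and not a binding site.

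Klrb1b encodes the inhibitory NKR-P1 receptor that recognises Clr-b, and RefSeq gives the same gene the older name Klrb1d. Probe set 1422067_PM_at read 7.0, 5.39 and 5.92 in the CD11c+ fractions of mice A, C and D, against 2.82, 2.47 and 2.74 in the CD11c- fractions. The CD11c- values were far under the background level and 2 of the 3 CD11c+ arrays lay above it, mouse A highest. The log2 fold change, 3.43 with a standard error of 0.285 (adjusted p = 0.0253), is therefore a nominal size, and taken against the background level the gene was at least 1.24-fold higher in CD11c+ cells. The CD11c+ mean of 6.11 ± 0.817 was only 0.31 above that level, so the rise was measured at the edge of what these arrays detect.

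The other 4 probe sets of Klrb1b had both group means under the background level. Probe set 1422065_PM_at read 5.68, 5.34 and 5.21 in the CD11c+ fractions of mice A, C and D and 3.51, 3.37 and 3.29 in the CD11c- fractions (log2 fold change 2.02, adjusted p = 0.0152). Probe set 1422066_PM_x_at, whose suffix warns that some of its probes may match other transcripts, read 4.88, 4.77 and 5.09 in CD11c+ and 3.51, 3.21 and 3.09 in CD11c- cells (log2 fold change 1.64, adjusted p = 0.0457). Both showed all 3 CD11c+ arrays above the CD11c- arrays with little spread within a group. The brightest, 1420421_PM_s_at, whose suffix marks probes shared by transcripts of several genes, read 4.61, 6.03 and 5.32 in CD11c+ and 4.13, 3.93 and 3.77 in CD11c- cells, and with this spread among the CD11c+ arrays its log2 fold change of 1.38 did not pass (adjusted p = 0.2). The last, 1445399_PM_at, had overlapping groups and differed by 0.58 on the log2 scale (adjusted p = 0.209). Averaged over the 5 probe sets and adjusted over genes, it was 1.81 (adjusted p = 0.005). Without mouse A none of the 5 passed, nor without mouse C. Without mouse A the 3 that had passed had adjusted p = 0.134, 0.102 and 0.188 (1422065_PM_at, 1422067_PM_at and 1422066_PM_x_at), and without mouse C 0.0813, 0.0557 and 0.153. Probe set 1422066_PM_x_at was also lost without mouse D (0.0812) and with a robust variance (0.0507), and 1422067_PM_at after cyclic loess (0.0562).

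Klrb1c encodes the NK1.1 antigen of C57BL/6 mice, an activating receptor that signals through FcRγ. Its values were 5.92, 5.29 and 5.34 in the CD11c+ fractions of mice A, C and D, against 7.06, 6.72 and 6.67 in the CD11c- fractions. The groups did not overlap, all 3 CD11c- arrays and 1 CD11c+ array were above the background level, and the difference within mice A, C and D was -1.14, -1.43 and -1.33. The means of 5.52 ± 0.352 in CD11c+ and 6.82 ± 0.213 in CD11c- cells differed by -1.30 on the log2 scale (standard error 0.136, 95% confidence interval -1.66 to -0.94, adjusted p = 0.042). Taken against the background level, Klrb1c was at least 2.03-fold lower in CD11c+ cells. The call was lost after cyclic loess (adjusted p = 0.0601), with each array centred on its median (0.0642), under a trended variance (0.0682) and without mouse A (0.18), C (0.183) or D (0.112), with log2 fold changes between -1.38 and -1.23. With the arrays centred on the CD3 chains it was -0.71 (adjusted p = 0.0675).

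Klrb1f, whose product recognises Clr-g, was above background in both fractions. Its brightest probe set, 1457722_PM_at, read 6.99, 6.38 and 6.45 in the CD11c+ fractions of mice A, C and D, against 7.53, 7.99 and 6.90 in the CD11c- fractions, a log2 fold change of -0.87 (95% confidence interval -1.61 to -0.12, adjusted p = 0.307). Each mouse was lower in CD11c+, but the value of mouse A there exceeded the CD11c- value of mouse D. The second, 1425962_PM_at, read 6.33, 6.27 and 6.39 in CD11c+ and 6.11, 6.25 and 5.16 in CD11c- cells, a log2 fold change of 0.49 (95% confidence interval -0.26 to 1.23, adjusted p = 0.565). The 2 probe sets thus disagreed in sign, and no direction can be given for the gene. Klrb1a, an NKR-P1 gene of the activating type, read 3.73, 2.98 and 3.28 in CD11c+ and 3.56, 3.46 and 4.74 in CD11c- cells. All 6 values were well under the background level and overlapped between the fractions (log2 fold change -0.59, adjusted p = 0.57).

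**Figure D3:**
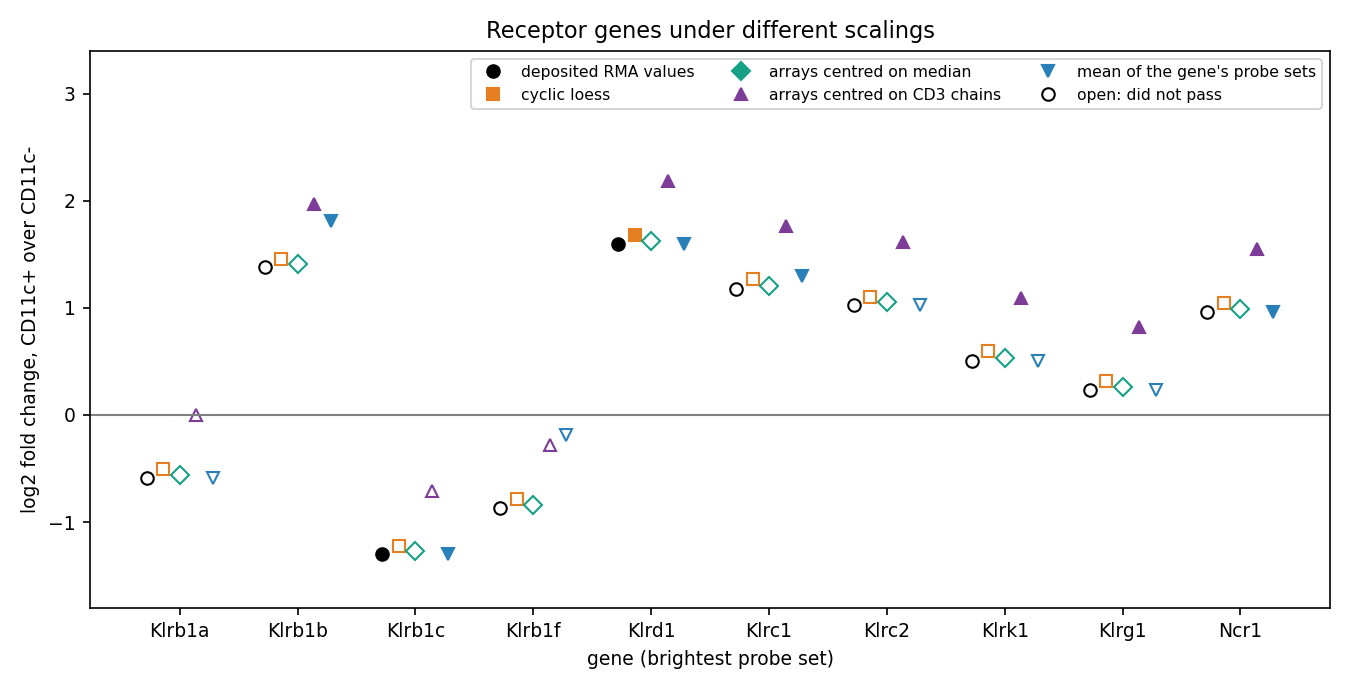
Log2 fold change of CD11c+ over CD11c- (vertical axis) of the 10 receptor genes by their brightest probe set (horizontal axis) under the deposited scaling, cyclic loess, centring on the array median and centring on the CD3 chains, and, under the deposited scaling, by an average over the probe sets of a gene, with filled symbols for an adjusted p under 0.05. Centring on the CD3 chains moved every gene up by 0.59, which put Klrb1a at 0 and left Klrb1c at -0.71 and Klrb1f at -0.28.

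The ligands of these receptors were read from the same cells with a list of 19 genes, of which 11 were measured. Cdh1, which encodes E-cadherin, a ligand of Klrg1, was the 1 that passed. It was at 5.87, 6.08 and 7.14 in the CD11c+ fractions of mice A, C and D, all above background, against 3.18, 3.09 and 3.12 in the CD11c- fractions (adjusted p = 0.0318), at least 1.48-fold higher. Named after their values were seen, for their roles, H2-T23, which encodes Qa-1, the ligand of CD94-NKG2, had log2 means of 10.08 in CD11c+ and 9.84 in CD11c- cells (log2 fold change 0.24, adjusted p = 0.562), and Clec2i, which encodes Clr-g, had 8.78 in CD11c+ and 8.45 in CD11c- cells (0.34, adjusted p = 0.637). Clec2d, which encodes the Klrb1b ligand Clr-b, was not above background in either fraction. The median log2 fold change of the 11 genes was -0.01.

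Among the adaptors with which the activating members signal, the genes of DAP12 and FcRγ rose and those of DAP10 and CD3ζ did not pass. Of 17 measured genes of adaptors and proximal signalling, of 19 listed, 5 passed, all of them higher in CD11c+ cells, and the median log2 fold change was 0.27. Tyrobp, which encodes DAP12, the adaptor of CD94-NKG2C and, in the mouse, of NKG2D, was at 11.30, 11.70 and 11.79 in the CD11c+ fractions of mice A, C and D, against 7.11, 6.32 and 7.21 in the CD11c- fractions, with no overlap (log2 fold change 4.72, adjusted p = 0.01). Fcer1g, which encodes FcRγ, the adaptor of NK1.1 and NKp46, was at 11.25, 11.56 and 11.57 in CD11c+ and 8.17, 8.49 and 8.16 in CD11c- cells (log2 fold change 3.19, adjusted p = 0.00654). Hcst, which encodes DAP10, the other adaptor of NKG2D, was at 9.71, 9.18 and 8.88 in CD11c+ and 10.01, 9.42 and 9.27 in CD11c- cells, with overlapping groups (log2 fold change -0.31, adjusted p = 0.411). Cd247, which encodes CD3ζ, was at 9.44, 9.34 and 8.76 in CD11c+ and 10.43, 10.49 and 10.20 in CD11c- cells. It was lower in 3 of 3 mice with no overlap, but did not pass (log2 fold change -1.19, adjusted p = 0.0611). The other 3 that rose had CD11c- means not above background. They were the kinase gene Syk, at least 10.3-fold higher in CD11c+ cells (adjusted p = 0.0271), the phospholipase gene Plcg2, at least 9.80-fold (0.00654), and the adaptor gene Lat2, at least 7.28-fold (0.0149). Tyrobp, Fcer1g, Syk, Plcg2 and Lat2 are also used by myeloid cells.

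**Figure D4:**
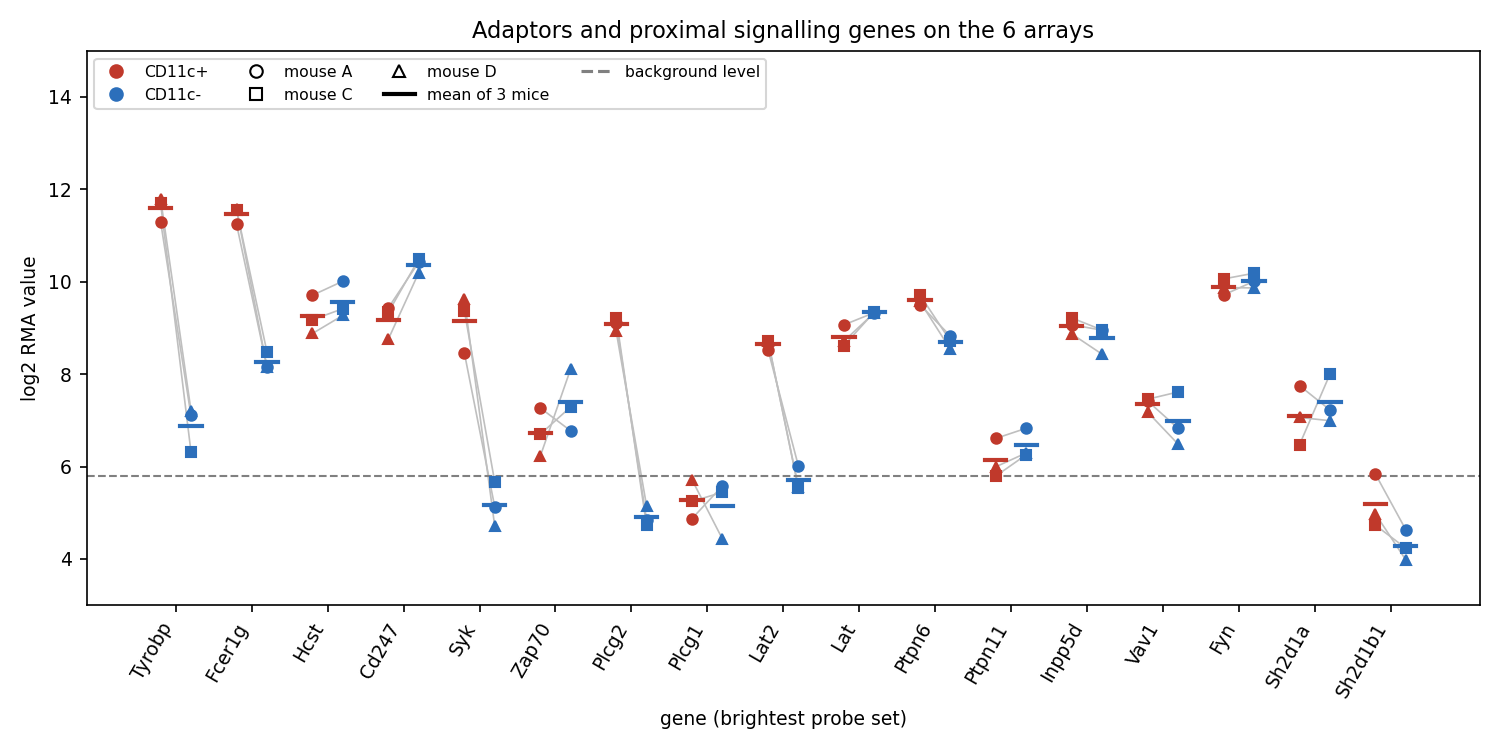
Log2 RMA values (vertical axis) of the 17 measured adaptor and proximal signalling genes, each by its brightest probe set (horizontal axis), on the 6 arrays, drawn as in the plot of the receptor probe sets. Tyrobp, Fcer1g, Syk, Plcg2 and Lat2 have all CD11c+ arrays far above the CD11c- arrays, and Hcst overlaps between the fractions.

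Among 10 measured genes of other lectin-like receptors of the same gene complex, of 29 listed, Klra2 alone passed, with 6.04, 6.92 and 5.61 in the CD11c+ fractions of mice A, C and D against 2.83, 2.71 and 2.69 in the CD11c- fractions (adjusted p = 0.0258), at least 1.32-fold higher. Of 12 other surface receptors of NK cells, 3 passed, all higher in CD11c+ cells: Lilrb4a (log2 fold change 4.83, adjusted p = 0.0132), Fcgr3 (at least 6.99-fold higher, 0.00554) and Cd244a (at least 4.10-fold, 0.0242), the last 2 against CD11c- means not above background. Lilrb4a and Fcgr3 are also receptors of myeloid cells. The other 9 of the 12 did not pass, and the median log2 fold change of the 12 was 0.91. In 3 of 3 mice 7 were higher and 3 were lower. Those lower were Slamf6 (log2 fold change -1.73, adjusted p = 0.0503), Cd96 (-0.87, 0.234) and Cd2 (-0.49, 0.325), all above background in both fractions. Among 17 transcription factors and cytokine receptors of NK cells, 4 rose and 1 fell. Il18rap, measured in both fractions, rose by 1.68 on the log2 scale (adjusted p = 0.0222). Zeb2 was at least 5.63-fold (adjusted p = 0.0487) and Eomes at least 2.85-fold (0.0225) higher in CD11c+ cells against CD11c- means not above background, and Gata3 was at least 2.91-fold lower (0.0486), its CD11c+ mean not being above background. The list's median log2 fold change was -0.33. Of 14 cytotoxic effectors Gzma (3.66, adjusted p = 0.00554), Gzmb (2.93, 0.049) and Gzmm (1.88, 0.0486) rose.

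Markers of several cell types differed between the same fractions. Of 11 measured NK cell markers 4 passed, all higher in CD11c+ cells (Tyrobp, Eomes, Gzma and Gzmb), and 7 did not. Higher in 3 of 3 mice were 7 of the 11, among them, without passing, Itga2 (log2 fold change 1.37, adjusted p = 0.0573), Nkg7 (0.85, 0.0835) and Prf1 (0.13, 0.726). Il2rb (-0.71, 0.161) and Klra9 (-1.92, 0.0937, not above background in CD11c+) were lower in 3 of 3 mice without passing. The 11 summed to linear signals of 8572 to 9119 in CD11c+ and 2934 to 3238 in CD11c- arrays. Of the listed markers, Klra8 and Cma1 were not above background in either fraction. T cell markers summed to 8088 to 9784 in CD11c+ and 14741 to 15769 in CD11c- arrays, with 12 of 13 lower in 3 of 3 mice and 2 of them past the threshold, Cd6 (log2 fold change -1.85, adjusted p = 0.0209) and Cd5 (-1.62, 0.0416). Of the 4 coreceptor markers Cd8b1 rose (log2 fold change 1.43, adjusted p = 0.0333). Cd8a had 1.54 (0.151), higher in 3 of 3 mice, and Cd4 and Cd40lg, markers of helper T cells, had -2.50 (0.0973) and -2.45 (0.076), lower in 3 of 3. NKG2A, CD94 and NKG2D are also carried by activated CD8 T cells, and the part of this difference in subset in the receptor values was not tested. Of 5 iNKT cell markers 2 fell, Izumo1r (-2.23, adjusted p = 0.0487) and Slamf1 (-1.83, 0.0411), with sums of 591 to 885 in CD11c+ and 2047 to 2602 in CD11c- arrays. The 3 measured gamma delta T cell markers, of 14 listed, were lower in 3 of 3 mice without passing. They summed to 139, 384 and 63.8 in the CD11c+ fractions of mice A, C and D, against 248, 906 and 383 in the CD11c- fractions.

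Markers of cells that should be absent from a T cell sort also differed. Of 14 monocyte and macrophage markers 7 rose, among them Lyz2, Cybb and Mpeg1 (at least 27.1-, 13.7- and 10.6-fold higher, against CD11c- means not above background), and the sums of the 14 were 5895 to 7631 in CD11c+ and 1721 to 2149 in CD11c- arrays. The other 7 did not pass. In 3 of 3 mice 13 of the 14 were higher and 1 was lower. The lower one was Ms4a6c, with log2 means of 8.68 in CD11c+ and 9.70 in CD11c- cells (log2 fold change -1.02, adjusted p = 0.149). Of 8 basophil and mast cell markers 7 rose, among them Gata2, Ms4a2 and Cpa3 (at least 16.6-, 12.2- and 6.39-fold higher), with sums of 2737 to 4498 in CD11c+ and 130 to 145 in CD11c- arrays, where none was above background. Of 8 dendritic cell markers H2-Ab1 and Cd209a (at least 69.9- and 18.8-fold higher, against CD11c- means not above background) and H2-Aa (log2 fold change 4.93) rose. In 3 of 3 mice 7 of the 8 were higher and 1 was lower, and 6 had CD11c+ means above background. Xcr1 and Zbtb46 were not above background in either fraction. The 8 neutrophil markers summed to 376 to 414 in CD11c+ and 135 to 180 in CD11c- arrays. Csf3r alone passed, at least 1.58-fold higher (adjusted p = 0.03) against a CD11c- mean not above background. Cxcr2 had a log2 fold change of 3.56 without passing (0.0595), its CD11c- mean also not above background, and the other 6 were not above background in either fraction. Of 5 platelet and red cell markers Itga2b rose (log2 fold change 2.30, adjusted p = 0.049), and the 5 summed to 757 to 1652 in CD11c+ and 234 to 3696 in CD11c- arrays. Of 9 B cell markers 2 rose, Pax5 (at least 1.58-fold, adjusted p = 0.0261) and Fcer2a (at least 1.05-fold, 0.0493), and 6 were higher in 3 of 3 mice, while Blk, above background in both fractions, differed by -1.28 on the log2 scale (0.19). The 9 summed to 570 to 1505 in CD11c+ and 549 to 1298 in CD11c- arrays. Fcer1g, Tyrobp, Cdh1 and Klrg1 are known from such cells as well, Klrg1 from mast cells of the rat. In bulk RNA of a sorted fraction, more cells that express a gene and more RNA of it per cell cannot be told apart, and the part of these other cells in the receptor differences was not tested.

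**Figure D5:**
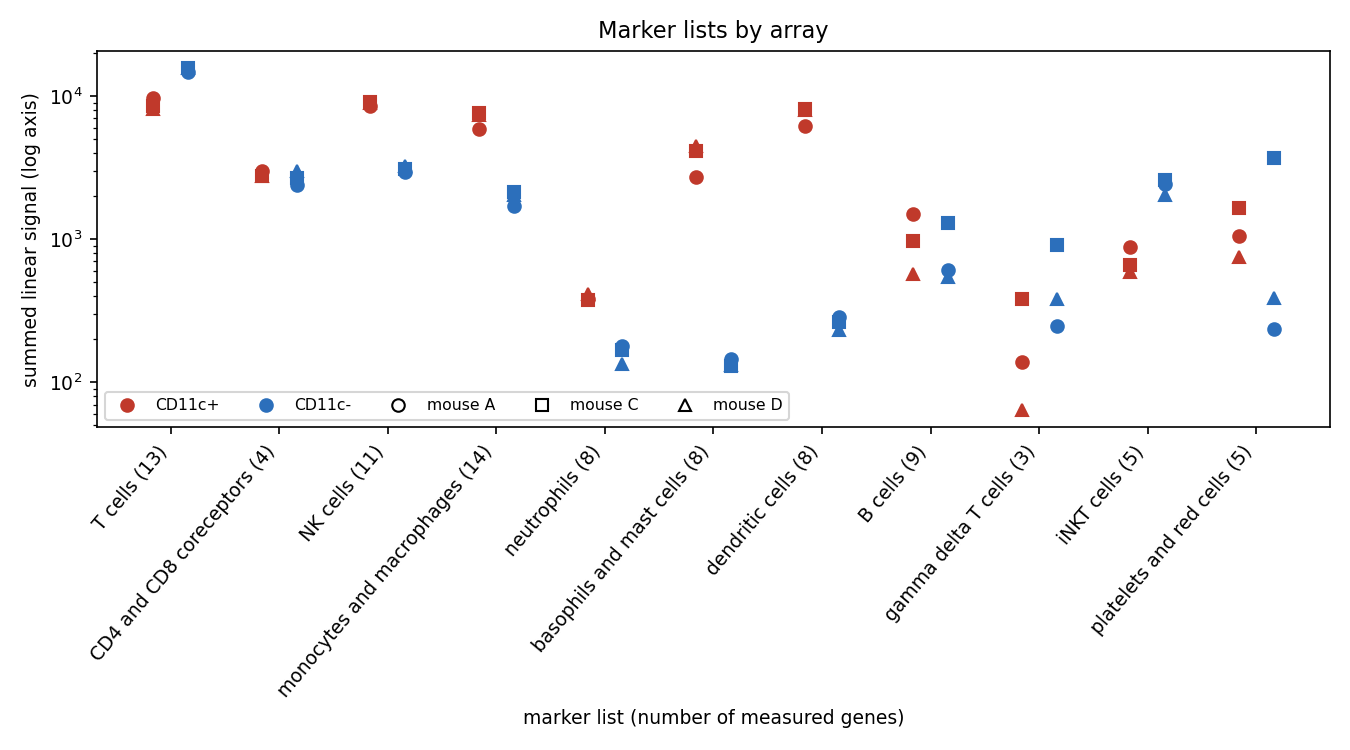
Summed linear signal (vertical log axis) of 11 marker lists (horizontal axis, measured genes in brackets) on the 6 arrays, CD11c+ in red left of CD11c- in blue, with marker shape for the mouse. NK cell, monocyte, neutrophil, basophil and dendritic cell lists are higher on every CD11c+ array than on any CD11c- array, and T cell and iNKT cell lists are lower.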

How the data were processed

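Per the study's methods, the authors read image intensities from Affymetrix mouse PM Strip arrays with the scanner's software and processed them by RMA. The deposited values are log2 signals, 1 per probe set and array. The submitters' processing notes name RMA and limma without versions. RMA brings the arrays to nearly the same distribution, so total RNA per cell cannot be compared, and amplification from 300 cells may spread dim values widely.

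Here limma 3.58.1 (R 4.3.3) was fitted to the log2 values of all 45141 probe sets on 6 arrays, unfiltered, the mouse being a fixed block. Tests were two-sided and adjusted by Benjamini-Hochberg across the array. Precision is limited by the number of arrays, since each probe set leaves 2 residual degrees of freedom. The labels assign both fractions of a pair to 1 mouse, and the block rests on these labels. Paired arrays deviated only weakly together from their groups, with correlations over probe sets of 0.122, 0.0758 and 0.109. The fit was tested on simulated data with independent noise on each array and no mouse effect, so deviations shared within a mouse were not part of that test. GEO's platform annotation gave the symbols: 28898 probe sets have 1, 551 several (none of them a receptor gene here) and 15692 none. The probe set of highest mean stood for a gene. Klrb1b and Klrb1c share older names and were told apart by Entrez identifier.

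The highest of the 35 genes behind the background level averaged 5.97, and 28.7% of all probe sets averaged above the level itself. A bound on a fold puts this level in place of the lower mean and has no error of its own.

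The receptor genes, gene lists and tests were chosen with earlier results of these data known. By the rule for names, the text gives all 10 receptor genes with every probe set, Itgax, the CD3 chains, Tyrobp, Hcst and Fcer1g, and from each list at most 3 rises and 3 falls, the largest in fitted log2 fold change past the threshold that went the same way in 3 of 3 mice. Lat2, Cd247, H2-T23, Clec2i, Clec2d, Slamf6, Cd96, Cd2, Itga2, Nkg7, Il2rb, Klra9, Prf1, Ms4a6c, Cxcr2, Blk, Cd4, Cd40lg, Cd8a and markers not above background were named after their values were seen. Promoter stretches are RefSeq's (GRCm38.p6), compared by local alignment (match 2, mismatch -3, gap opening -5, gap extension -2). Alternatives covered the block, scaling, variance model, a filter on dim probe sets, the threshold, the choice of probe set and each mouse left out. A scaling by the CD3 chains was chosen after seeing the data.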

Additional observations from a re-analysis of the deposited data

How the results depend on the processing

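With 3 mice, leaving out both arrays of 1 mouse left 0 to 2 of the receptor probe sets higher (2 without mouse D, 0 without A or C, with 10, 9 and 10 at an unadjusted p under 0.05 without A, C and D) and 0 lower in each case (1, 1 and 2 unadjusted). Over all probe sets it left 0 to 348 higher and 0 to 44 lower. Without mouse A none passed in limma, with 2796 higher and 2767 lower at an unadjusted p under 0.05, so a receptor lost there does not differ in this from the other probe sets. Without mouse C 175 were higher and 2 lower (2419 and 2469 unadjusted), and without mouse D 348 and 44 (2579 and 2945 unadjusted).

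The 4 receptor probe sets that were higher became 7 with the mouse as a random block, 1 when the dimmer probe sets of the array were left out, since the 3 Klrb1b probe sets are among those, and 13 with the arrays centred on the CD3 chains. The 1 that was lower, Klrb1c, became 0 after cyclic loess, with arrays centred on their median, with a trended variance and with the CD3 chains. In these limma fits 1, 2, 2 and 1 receptor probe sets were lower at an unadjusted p under 0.05, against 2381, 2869, 3343 and 479 of all probe sets. Over all probe sets, 432 were higher and 76 lower as reported, 684 and 211 without the replicate block, 812 and 316 with a random block, 684 and 207 under a trended variance, 845 and 380 at a threshold of 0.1, and 41 were lower after cyclic loess and 140 with the dimmer ones left out. With the CD3 chains 5511 were higher and 177 lower. That scaling, added after the data were seen, moved the median of all probe sets by 0.59, the same shift as for each receptor, and put Klrb1a at 7.33e-05 (adjusted p = 1). Under it Klrb1b by its brightest probe set (adjusted p = 0.00312), Klrc1 (0.000805), Klrc2 (0.00232), Ncr1 (0.00254), Klrk1 (0.0191) and Klrg1 (0.0475) passed. Of 180 combinations of a receptor probe set or gene and an alternative, 141 kept direction and side of the threshold, 18 came to pass, 20 ceased to pass and 1 changed sign. Without the replicate block Klrc1 (0.0131) and Klrc2 (0.0418) passed, and no receptor probe set lost its call.

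Of the 16 receptor probe sets, 11 were higher at an unadjusted p under 0.05 and 4 after adjustment over all probe sets. Of the 45141 probe sets of the array, 2833 and 432 were. With each gene taken by its brightest probe set, 6 of 10 receptor genes were higher unadjusted, against 1262 of 17097 genes. Probe sets under the background level give no level of their own, so the size of the Klrb1b, Klrb1c, Ncr1 and Klrc2 differences is not known.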
